A study of Homo sapiens with 24 samples.

Results

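The transcripts described here are those whose deposited symbol is LINC followed by digits, the provisional name of a long intergenic noncoding RNA. They were selected on their level, at least 1 FPKM (fragments per kilobase of transcript, as deposited) in at least 3 of 24 libraries. Of 873 LINC entries among 26249 genes, 172 met this rule and 622 were under 1 FPKM in every library. The libraries came from 2 established human multiple myeloma lines, H929 and MM1S, grown in 12 well plates and given DMSO, the vehicle, or YKL-5-124 (YKL), a code-named compound that the series title describes as an inhibitor of the kinase CDK7. The 8 groups, each of 3 libraries, were H929 DMSO 6 h, H929 YKL 6 h, H929 DMSO 24 h, H929 YKL 24 h and the same for MM1S. The labelled dose was 83 nM in H929 and 98 nM in MM1S, and DMSO samples carry the same figure. Line and dose cannot be told apart. Separate cultures for the 3 libraries of a group are not stated, so a p-value here covers the spread between libraries, which may be technical spread.

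Long intergenic noncoding RNAs are transcribed by RNA polymerase II from their own promoters, usually capped, spliced and polyadenylated like messenger RNAs, and translated little or not at all. Many are made in few cell types and at low level. CDK7 phosphorylates RNA polymerase II as part of the initiation factor TFIIH and activates the cell cycle CDKs. Some LINC symbols have since been replaced by functional names or been found to encode short proteins. All 172 symbols were matched to RefSeq records, where 37 now stand under another symbol, 161 are classed as long noncoding RNA and 11 as protein coding.

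Promoters are shown for 4 transcripts because the largest line difference in each direction and the largest rises with YKL in H929 belong to them. Each is the RefSeq window from 250 bases before to 50 bases after the annotated start (GRCh38.p14, 5′ to 3′ on the strand of the transcript). LINC01021 (now PURPL, a transcript known to be induced by p53) is on the plus strand at chr5:27472042-27472341, and its capitals mark 2 p53 half-sites that follow each other with no gap. LINC01136 (now BTG2-DT, read divergently from the start of BTG2) is on the minus strand at chr1:203305276-203305575, and its capitals mark CCAAT or GGGCGG on either strand. LINC01353, on the plus strand at chr1:203286902-203287201, and LINC00582, on the minus strand at chr1:231612041-231612340, hold none of the motifs searched.
LINC01021: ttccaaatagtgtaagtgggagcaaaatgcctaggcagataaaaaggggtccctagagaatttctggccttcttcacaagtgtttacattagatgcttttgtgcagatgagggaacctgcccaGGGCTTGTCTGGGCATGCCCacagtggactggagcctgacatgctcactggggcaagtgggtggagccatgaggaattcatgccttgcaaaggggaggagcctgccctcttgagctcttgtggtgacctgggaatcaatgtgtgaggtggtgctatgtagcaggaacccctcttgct
LINC01136: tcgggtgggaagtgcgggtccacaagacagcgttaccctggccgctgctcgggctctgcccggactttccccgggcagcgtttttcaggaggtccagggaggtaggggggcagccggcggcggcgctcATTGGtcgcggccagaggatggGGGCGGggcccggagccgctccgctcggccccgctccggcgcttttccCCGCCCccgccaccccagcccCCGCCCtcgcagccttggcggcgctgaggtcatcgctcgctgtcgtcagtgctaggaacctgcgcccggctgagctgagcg
LINC01353: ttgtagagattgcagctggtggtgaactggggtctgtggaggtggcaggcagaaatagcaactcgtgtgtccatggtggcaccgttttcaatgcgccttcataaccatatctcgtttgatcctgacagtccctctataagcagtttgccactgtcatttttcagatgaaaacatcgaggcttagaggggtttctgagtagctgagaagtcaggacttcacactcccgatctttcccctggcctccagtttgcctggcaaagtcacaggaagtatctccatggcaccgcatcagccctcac
LINC00582: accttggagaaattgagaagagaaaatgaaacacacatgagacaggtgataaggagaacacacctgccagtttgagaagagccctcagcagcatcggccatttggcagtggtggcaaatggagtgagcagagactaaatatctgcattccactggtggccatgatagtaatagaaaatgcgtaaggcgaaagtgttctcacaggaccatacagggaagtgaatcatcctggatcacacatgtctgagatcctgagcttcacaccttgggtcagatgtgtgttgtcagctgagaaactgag

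Promoters of 126 of the 172 transcripts were in the RefSeq table of 27305 promoters, and 4 motifs were searched on both strands. The E-box CACGTG was in 9.52% of these windows and in 7.43% of all promoters. CCAAT was in 40.5% and 35.7%, TATAAA in 13.5% and 12.0%, and GGGCGG in 39.7% and 44.6%. A search for the p53 half-site was added after the sequence of LINC01021 had been seen. It was in 4.76% of the LINC windows and 6.54% of all promoters, while 2 half-sites without a gap were in 1 LINC window, that of LINC01021, and in 5 of all 27305 promoters. Of the 17 promoters of transcripts that were higher with YKL in at least 1 comparison, 70.6% held GGGCGG, as did 66.7% of the 6 promoters of transcripts that were lower in at least 1. A match describes the letters and is not a binding site.

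Summed FPKM of all genes ran from 362000 to 2520000 per library and was lower in the 24 h YKL libraries of H929 and in all 24 h libraries of MM1S than in H929 with DMSO. The spike-in transcripts were nearly level, as after scaling to them, so a shift of a whole library moves all its genes. Results are therefore given on the deposited scale, the main one, and after rescaling each library to the median ratio of its well-expressed genes, called rescaled below. Rescaling factors ran from 0.365 to 2.04. On both scales fewer cells and less RNA per cell cannot be told apart in bulk RNA. Spike-in levels were uneven in MM1S YKL 6 h replicate 2 and MM1S DMSO 24 h replicate 1. The translocation markers FGFR3 and WHSC1 summed to 92.6 to 265 FPKM in H929 libraries and 4.25 to 24.8 in MM1S libraries, plasma cell markers to at least 1080 FPKM, and T cell markers to at most 4.79. Of the plasma cell list, CD38 was low in MM1S, at 0.194 to 2.64 FPKM against 7.22 to 20.4 in H929. MAF, the marker of MM1S, did not separate the lines, with 13.6 to 23.4 FPKM in H929 and 10.9 to 54 in MM1S. Of the monocyte list, S100A9 was at 6.27 to 34 FPKM in H929 and at most 4.62 in MM1S, while CD14, LYZ and FCGR3A were at most 0.648 FPKM in either line. Of the epithelial and fibroblast list, VIM (64.1 to 344 and 4.98 to 43.2 FPKM) and KRT18 (7.43 to 33.2 and at most 0.722) stood higher in H929, while EPCAM and KRT8 were at most 0.325 FPKM. The part of these genes in the line differences was not tested.

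The LINC transcripts were scarce. Their median level over all libraries was 1.08 FPKM, against 6.21 FPKM for the 12418 genes that met the same filter. A mean of at least 5 FPKM was reached by 28, while 80 had a mean under 1 FPKM, and 28 were at 1 FPKM or more in all 24 libraries. At the edge of the rule, LINC01352 and LINC01054 were kept with 1.01 FPKM as the third highest value, and LINC00862 (0.992) and LINC01202 (0.99) were left out. Between 53 and 114 of the 172 reached 1 FPKM in a library, with group means from 74.3 ± 18.6 (SD, n = 3) in MM1S DMSO 24 h to 101 ± 8.96 in H929 DMSO 24 h. Together they made up 0.111% to 0.242% of the summed gene FPKM.

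LINC00152, now CYTOR, a cytoplasmic RNA studied for its part in tumour cell growth, had the highest level of all and made up 14.3% to 70.6% of the summed LINC FPKM. Its mean over 24 libraries was 975 FPKM. LINC01480 followed with 243 FPKM and LINC00493 with 121 FPKM. LINC00467 (61.6), LINC01604 (54.8), LINC01023 (46.0), LINC00116 (42.9), LINC01578 (41.4), LINC00888 (31.3) and LINC01420 (30.8) completed the 10 highest. LINC01604 is now MINCR, a transcript known as MYC-induced, LINC01578 is CHASERR, which lies beside CHD2 and limits its expression, and LINC00888 is SNHG33, a small nucleolar RNA host gene. FPKM divides by transcript length although only 3′ ends were read, so the order between transcripts is approximate.

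Levels in the 2 lines differed widely for individual transcripts. By the way the rule was met, 139 of the 172 had libraries at 1 FPKM in both lines, 17 in H929 alone and 16 in MM1S alone. Between H929 and MM1S with DMSO (6 libraries each, both times), 47 were higher in H929 and 26 higher in MM1S on the deposited scale (limma, adjusted p under 0.05). Of all genes tested, 61.7% were called higher in H929 and 10.3% higher in MM1S. The median difference on the log2(FPKM + 1) scale was 0.06 for the LINC transcripts and 0.71 for all genes. After rescaling the split turned to 12 higher in H929 and 73 higher in MM1S, with 26.6% and 41.1% of all genes and medians of -0.46 and -0.18. The direction of the balance therefore depends on the scale. Against the all-gene shift, the LINC median was lower on both scales, and the part of their low level in this was not tested. Of the 5682 genes with a mean under 5 FPKM, 2393 were higher in H929 and 890 higher in MM1S, and 774 and 2738 after rescaling. The 144 LINC transcripts under 5 FPKM gave 34 and 18, and 6 and 56 after rescaling. Of the 47, 24 met the filter only through H929, with fewer than 3 MM1S libraries at 1 FPKM, and of the 26, 15 met it only through MM1S. The filter favoured a difference in these without fixing it, and 23 and 11 were left. In the 139 with libraries at 1 FPKM in both lines the counts were 34 and 16, and 9 and 59 after rescaling. Called in the same direction on both scales were 12 for H929 and 26 for MM1S, and 2 were called in opposite directions. Rescaling factors were at least 1.62 in the H929 DMSO libraries and at most 1.24 in the MM1S ones. Rescaling thus raises MM1S against H929 for every gene, so the rescaled call of the 26 is no separate evidence.

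**Figure D1:**
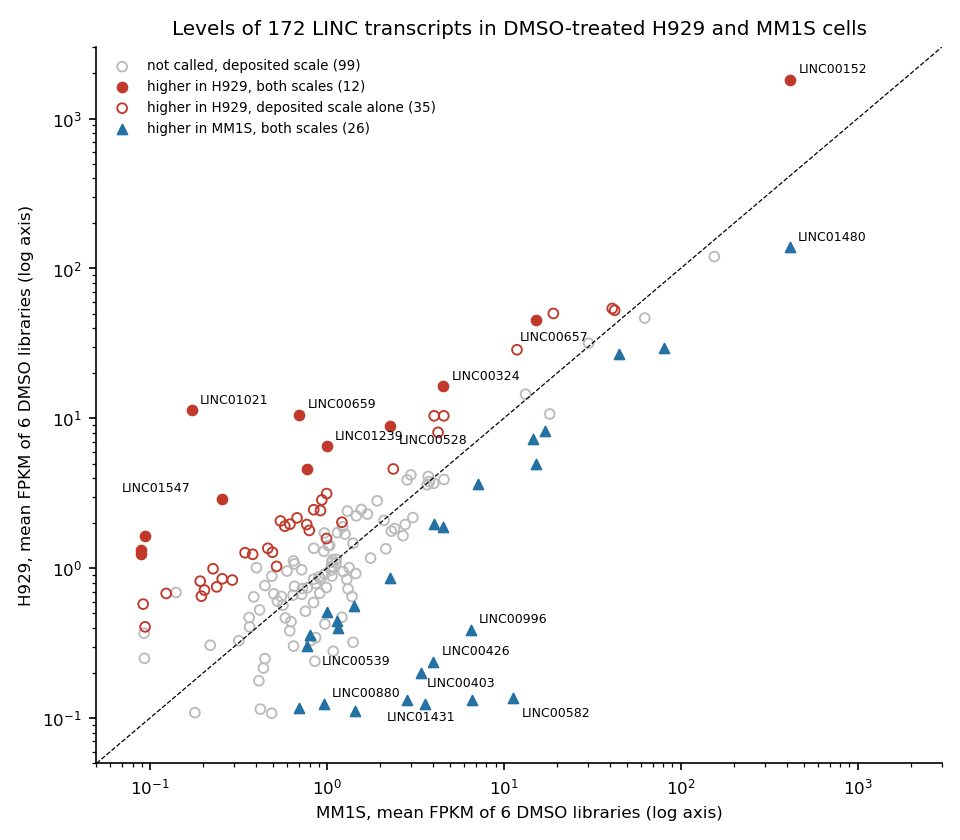
Mean FPKM of each of the 172 LINC transcripts in the 6 DMSO libraries of MM1S (horizontal, log axis) and of H929 (vertical, log axis), with the dashed line at equal levels. Filled circles mark the 12 called higher in H929 on both scales, open red circles the 35 called so on the deposited scale alone, and triangles the 26 called higher in MM1S on both scales.

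LINC00152 was the strongest in absolute level. In H929 with DMSO it stood at 1480, 2190 and 1830 FPKM at 6 h and 1800, 1970 and 1660 FPKM at 24 h, and in MM1S at 581, 514 and 620 and at 138, 437 and 211 FPKM. All 6 libraries of H929 were above all 6 of MM1S. The difference on the log2 scale was 2.31 ± 0.23 (SE, adjusted p 4.57e-09) and 1.07 after rescaling (adjusted p 1.23e-07).

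LINC01021 had the largest difference towards H929. It stood at 7.09, 15.3 and 11.2 FPKM at 6 h and 15.1, 9.61 and 9.28 FPKM at 24 h in H929, and at 0.0809 to 0.552 FPKM in the 6 MM1S libraries. Genes with no signal hold about 0.1 FPKM in these tables, and 0.552 FPKM was the value of MM1S DMSO 24 h replicate 1, where spike-ins were uneven. The log2 difference was 3.35 ± 0.22, and 2.47 after rescaling. Fewer than 3 MM1S libraries reached 1 FPKM, so LINC01021 met the filter through H929, and its line difference is a description with no test.

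LINC00659 followed at 5.59 to 13.4 FPKM in H929 and 0.112 to 1.83 in MM1S (2.79 ± 0.26, adjusted p 2.78e-09). LINC01239 stood at 6.52 FPKM on average in H929 and 1 in MM1S, and LINC00324 at 16.5 and 4.56. LINC00657, now NORAD, an abundant RNA that binds the Pumilio proteins and guards genome stability, stood at 45.1 and 15.3 FPKM, with 39 to 53.2 in every H929 library against 4.97 to 23.6 in MM1S (1.69 ± 0.20, adjusted p 7.68e-08). After rescaling its difference was 0.52 (adjusted p 0.00015). LINC01547 (2.92 and 0.256 FPKM) and LINC00528 (8.96 and 2.29 FPKM) closed the 8 largest. LINC00528 starts within 5 kb of the opposite-strand start of BID, a BH3-only member of the BCL2 family, which differed in the same direction (62.9 and 23.4 FPKM, 1.59 ± 0.19, adjusted p 9.3e-08). LINC01547, like LINC01021, met the filter only through H929. The other 6 were called towards H929 on both scales, and none of the 6 lost its call when any single DMSO library was left out.

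LINC00582 had the largest difference towards MM1S. It stood at 13.9, 15 and 15.1 FPKM at 6 h and 9.08, 11.4 and 3.32 FPKM at 24 h in MM1S, and at 0.116 to 0.15 FPKM in H929, which is the level of genes with no signal. The log2 difference was -3.31 ± 0.22, a description with no test, since LINC00582 met the filter only through MM1S. It overlaps the TSNAX-DISC1 readthrough on the opposite strand, and whether counting used strand is not given in the sources used here.

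LINC00403, now SOX1-OT after the neighbouring transcription factor gene SOX1, stood at 9.53, 7.59 and 7.64 FPKM at 6 h and 7.09, 5.25 and 2.77 FPKM at 24 h in MM1S, and at 0.113 to 0.147 FPKM in H929. Its log2 difference was -2.68 ± 0.17. LINC00996, beside the GIMAP gene cluster of lymphocyte GTPases, averaged 6.52 FPKM in MM1S and 0.39 in H929. Its nearest coding neighbour GIMAP8 averaged 1.59 and 0.162 FPKM. GIMAP8 met the filter only through MM1S, so its values carry no test. LINC00426 averaged 4 and 0.239 FPKM, LINC00539 3.43 and 0.2, LINC01431 2.85 and 0.132 and LINC00880 0.96 and 0.125. LINC00403 and these 5 LINC transcripts also met the filter only through MM1S, so their values carry no test. LINC01480 was abundant in both lines, at 207 to 574 FPKM in MM1S and 106 to 166 in H929 (-1.53 ± 0.22, adjusted p 1.75e-06). LINC01480 kept its call without any single DMSO library, and also on the rescaled values, where every gene moves towards MM1S.

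**Figure D2:**
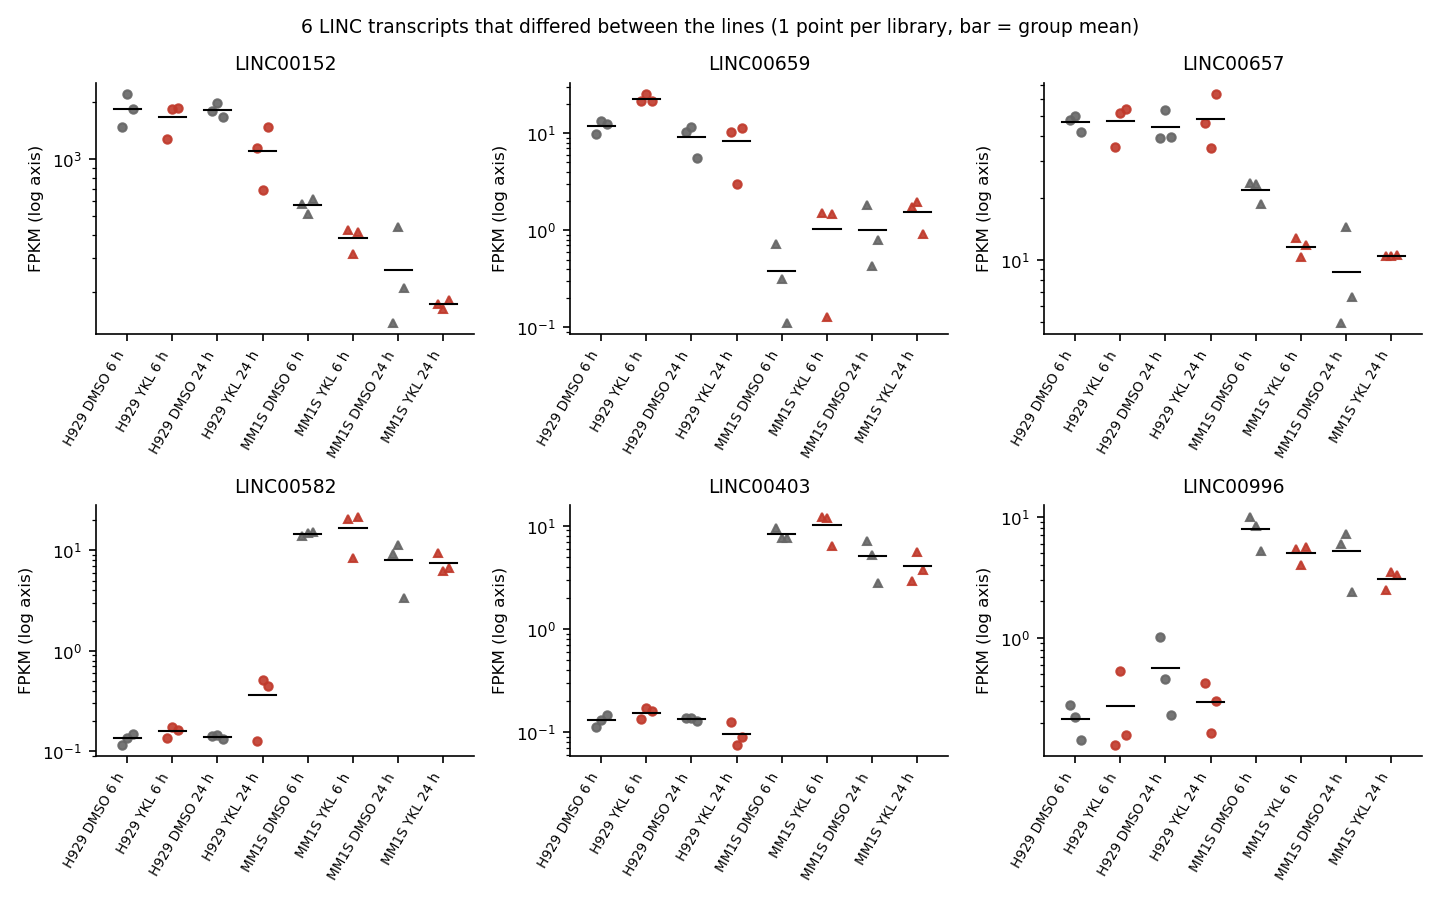
FPKM (log axis) of 6 LINC transcripts in each of the 24 libraries, circles for H929 and triangles for MM1S, grey for DMSO and red for YKL, with the group mean as a bar. LINC00152, LINC00659 and LINC00657 were higher in every H929 DMSO library than in any MM1S DMSO library, and LINC00582, LINC00403 and LINC00996 were higher in every MM1S one.

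A stricter description asked for at least 1 FPKM in at least 3 libraries of one line and under 0.5 FPKM in all 12 libraries of the other. It held for 11 transcripts in H929 (LINC01234, LINC00649, LINC00936, LINC00462, LINC00884, LINC01571, LINC00692, LINC00921, LINC01233, LINC01315 and LINC00239) and 6 in MM1S (LINC00403, LINC00944, LINC00880, LINC01054, LINC01215 and LINC00396). LINC00403 reached 1 FPKM in 12 libraries, LINC00944 in 10 and LINC01234 in 10, while the others did so in 3 to 8. For 1 transcript, LINC01233, all libraries at 1 FPKM were in a single group, H929 YKL 24 h.

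With YKL, single LINC transcripts rose while most did not pass the test. On the deposited scale 34 of the 172 changed in at least 1 of the 4 comparisons with DMSO and 138 in none. In H929 at 6 h 6 rose and 0 fell, against 1.03% and 1.16% of all genes, and 23 of the 172 had an unadjusted p under 0.05. In H929 at 24 h 15 rose and 10 fell, against 2.67% and 35.4% of all genes. In MM1S at 6 h 6 rose and 2 fell, against 0.926% and 10.0% of all genes. In MM1S at 24 h 2 rose and 0 fell, against 0.684% and 6.77% of all genes, with 12 at an unadjusted p under 0.05. The YKL group tested was itself what brought 1 of the 6 risers in H929 at 6 h (LINC01191), 3 of the 15 at 24 h (LINC00692, LINC00936 and LINC01233) and 1 of the 6 in MM1S at 6 h (LINC00942) past the filter, so these had to be higher there, and 5, 12 and 5 were left. Among those left, LINC00174 reached 1 FPKM in YKL libraries alone, and LINC00880 mostly in YKL libraries. The same holds for LINC01252, a riser in MM1S at 24 h, which reached it mostly in YKL libraries. As shares of the 172, the risers were 3.49%, 8.72%, 3.49% and 1.16% in that order, and the fallers 0%, 5.81%, 1.16% and 0%. Median log2 changes in the same order were 0.05, -0.07, -0.09 and 0.05 for the LINC transcripts and -0.06, -0.46, -0.29 and -0.12 for all genes.

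After rescaling, 13 rose and 1 fell in H929 at 6 h (5.11% and 4.19% of all genes), 42 rose and 0 fell at 24 h (20.8% and 12.5%), 17 rose and 1 fell in MM1S at 6 h (8.25% and 7.21%), and 28 rose and 1 fell at 24 h (14.4% and 13.3%). The share rising, at 7.56%, 24.4%, 9.88% and 16.3%, was then near that of all genes, and the share falling was 0.581% or 0%. Rescaled medians were 0.11, 0.28, 0.08 and 0.26 for the LINC transcripts and 0.07, 0.13, 0.05 and 0.05 for all genes. All 15 deposited-scale risers of H929 at 24 h also rose on the rescaled values, and 0 of the 10 fallers were still called. The factors there were 0.671 to 1.3 with YKL and 1.63 to 1.94 with DMSO. Rescaling thus raises YKL against DMSO for every gene, so the rescaled call of these risers is no separate evidence.

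H929 at 24 h was also read by level, since most LINC transcripts are scarce. Of all genes with a mean under 5 FPKM, 3.64% rose and 18.9% fell on the deposited scale, and 16.8% and 3.59% on the rescaled one. The 144 LINC transcripts under 5 FPKM gave 8 risers and 8 fallers, and 21 and 0 after rescaling. Of genes with a mean of at least 5 FPKM, 1.86% rose and 49.3% fell, and 24.2% and 20.0% after rescaling. The 28 LINC transcripts at or above 5 FPKM gave 7 risers and 2 fallers, and 21 and 0 after rescaling.

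**Figure D3:**
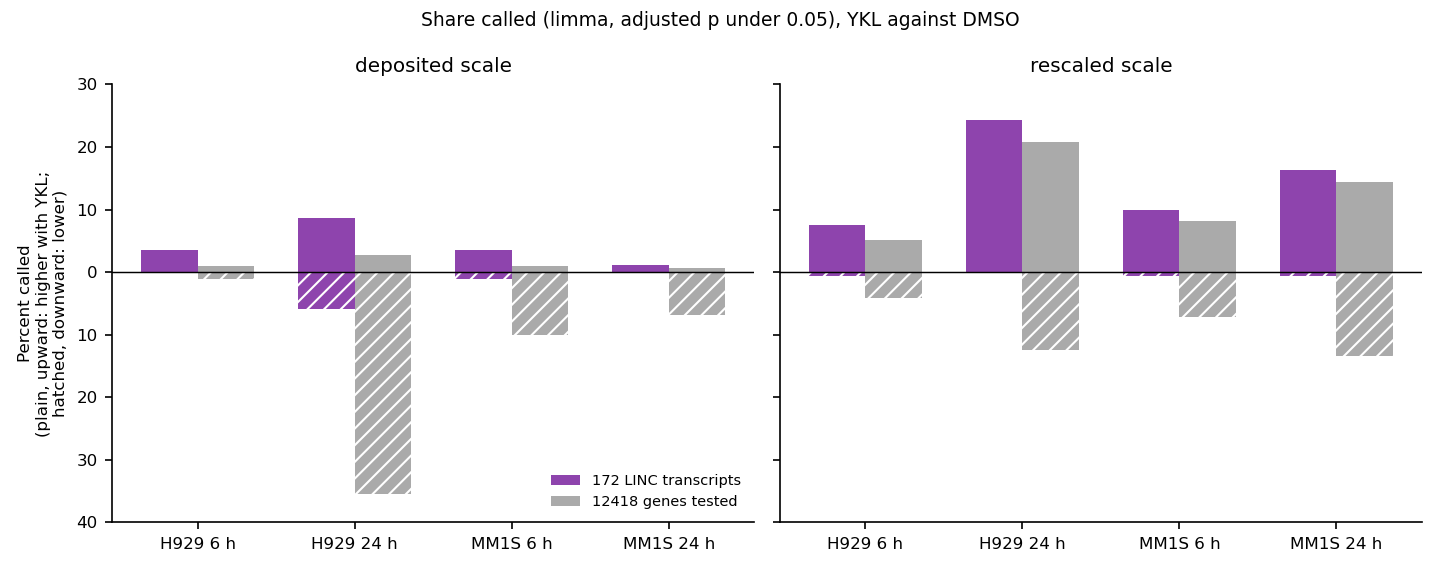
Percent of the 172 LINC transcripts (purple) and of the 12418 genes tested (grey) that were called higher (plain bars, upward) or lower (hatched bars, downward) with YKL, on the deposited scale (left) and after rescaling (right). In H929 at 24 h 8.72% of the LINC transcripts rose and 5.81% fell on the deposited scale, against 2.67% and 35.4% of all genes.

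LINC01136 had the largest rise in H929 at 24 h and did not pass the test in MM1S. It stood at 2.61, 3.08 and 1.66 FPKM with DMSO and 10.6, 7.29 and 16.1 FPKM with YKL at 24 h. Every YKL library was above every DMSO library. The change was 1.80 ± 0.24 (adjusted p 8.65e-06), and 2.34 after rescaling. At 6 h it stood at 1.96, 2.82 and 2.45 FPKM and 4.54, 6.59 and 5.2 FPKM (0.91 ± 0.24, adjusted p 0.0445), a call that was lost without any 1 of the 6 libraries (adjusted p 0.0603 to 0.168). In MM1S at 24 h it stood at 0.71, 0.91 and 0.52 FPKM with DMSO and 0.643, 0.489 and 0.737 FPKM with YKL. The difference between the responses of the lines at 24 h was 1.87 ± 0.34 (adjusted p 0.00654).

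LINC01353 lies 10.0 kb from LINC01136 on the opposite strand in GENCODE v29, at the same locus. It stood at 18.9, 14.8 and 9.06 FPKM with DMSO and 68, 20.7 and 56.6 FPKM with YKL in H929 at 24 h. The groups did not overlap, although YKL replicate 2 came close to the highest DMSO library. The change was 1.59 ± 0.41 (adjusted p 0.00453). Its nearest coding gene is CHIT1, which encodes chitotriosidase. In the same libraries CHIT1 stood at 0.273, 0.373 and 0.116 FPKM and 2.17, 1.69 and 1.68 FPKM. It met the filter only through those YKL libraries, so these values are a description with no test. In MM1S CHIT1 averaged 0.146 FPKM with DMSO and 0.779 with YKL at 6 h, and 0.329 and 0.506 at 24 h. The 6 h rise was called by limma on both scales (adjusted p 0.0394, and 0.0466 after rescaling). However, CHIT1 reached 1 FPKM in YKL libraries alone, so the filter favoured a rise with YKL. Its highest MM1S library, at 1.19 FPKM, was MM1S YKL 6 h replicate 2, where spike-ins were uneven. Replicates 1 and 3 of that group were at 0.717 and 0.425 FPKM. BTG2, an antiproliferative gene that p53 is known to induce, stood at 82.3, 81.1 and 65.3 FPKM with DMSO and 104, 67.4 and 137 FPKM with YKL. Those H929 24 h groups overlapped. BTG2 did not pass the test there on the deposited scale (0.38, adjusted p 0.272) but did after rescaling (1.20, adjusted p 2.86e-08). MM1S gave the same split between scales. Mean BTG2 went from 109 to 102 FPKM at 6 h and from 44.3 to 68.5 at 24 h, neither called as deposited. Rescaled changes in MM1S were 0.38 (adjusted p 0.0158) and 0.95 (adjusted p 6.34e-07). The rescaled rise of BTG2 was therefore not confined to H929.

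LINC01021 stood at 7.09, 15.3 and 11.2 FPKM with DMSO and 31.1, 35.6 and 29.3 FPKM with YKL in H929 at 6 h. The groups were far apart. The change was 1.49 ± 0.31 (adjusted p 0.0126). The adjusted p was 0.0599 without H929 DMSO 6 h replicate 1 and 0.0515 without H929 YKL 6 h replicate 2. At 24 h it stood at 15.1, 9.61 and 9.28 FPKM and 26.6, 11.4 and 29.2 FPKM (0.85 ± 0.31, adjusted p 0.0345), where YKL replicate 2 lay within the DMSO range. In MM1S it was at 1.09 FPKM in 1 YKL 6 h library, replicate 2, where spike-ins were uneven, and at most 0.261 FPKM in the other YKL libraries.

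LINC01089 rose in both lines, though at different times. In MM1S at 6 h it stood at 0.898, 2.93 and 1.6 FPKM with DMSO and 7.41, 3.59 and 5.36 FPKM with YKL (1.22 ± 0.31, adjusted p 0.0159). In H929 at 24 h it stood at 2.22, 2.71 and 1.63 FPKM and 4.93, 4.02 and 5.09 FPKM (0.84 ± 0.31, adjusted p 0.0378). The H929 6 h values were 2.49, 3.01 and 1.72 FPKM and 3.06, 8.35 and 8.64 FPKM, also without overlap, with an adjusted p of 0.0666 on the deposited scale and 0.0118 after rescaling. The MM1S 6 h call was lost without MM1S DMSO 6 h replicate 1, MM1S YKL 6 h replicate 1 or MM1S YKL 6 h replicate 3. LINC01089 shares its strand with the overlapping gene RHOF, so reads of the pair may be split between them.

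**Figure D4:**
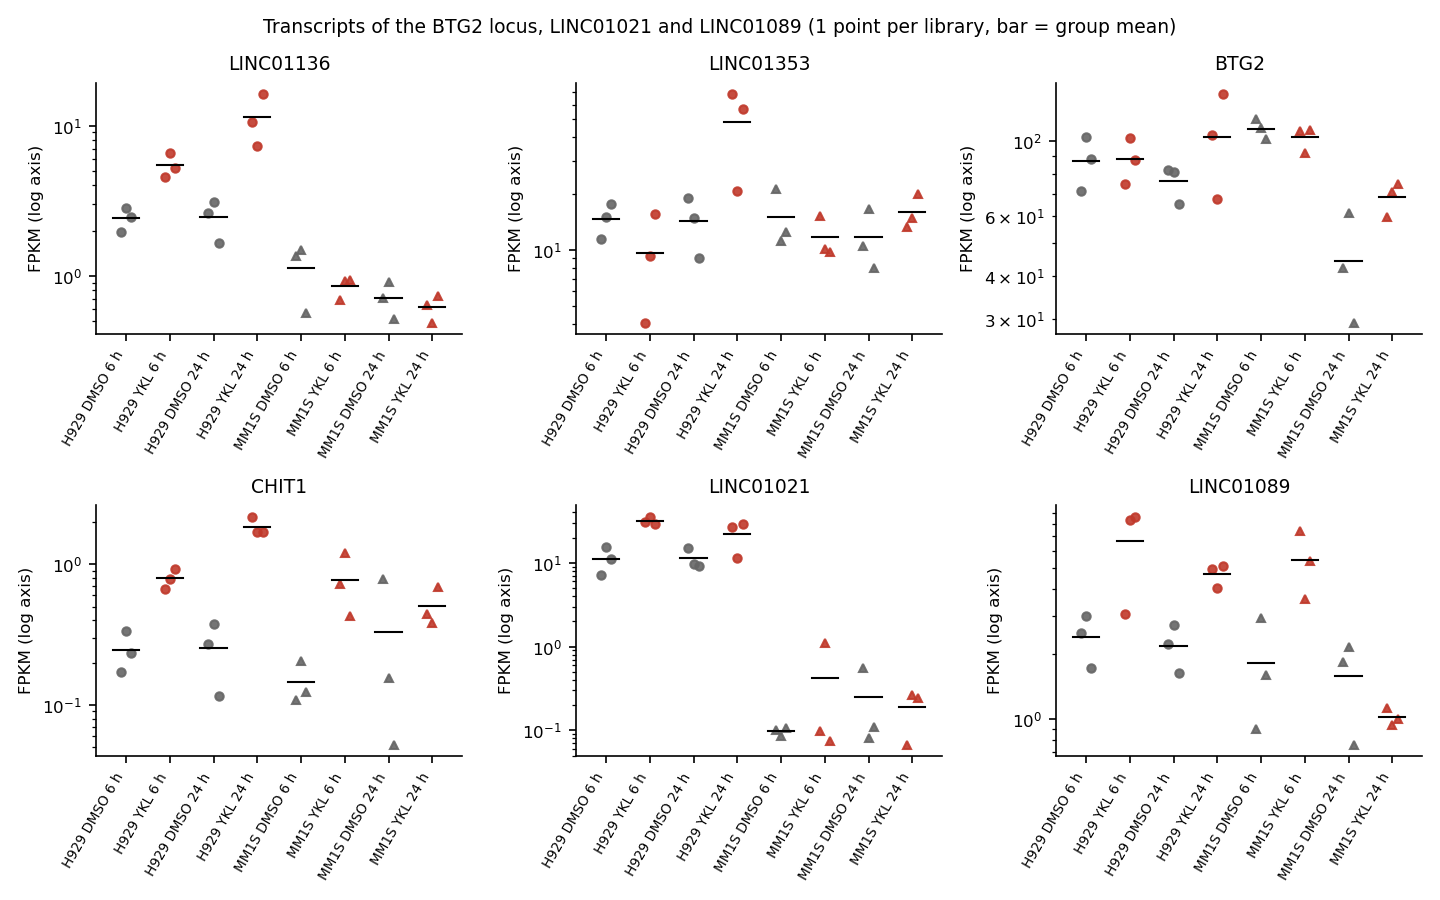
FPKM (log axis) of LINC01136, LINC01353, their coding neighbours BTG2 and CHIT1, LINC01021 and LINC01089 in the 24 libraries, circles for H929 and triangles for MM1S, grey for DMSO and red for YKL, with group means as bars. LINC01136 reached 7.29 to 16.1 FPKM in H929 with YKL at 24 h and stayed at 0.489 to 0.737 FPKM in MM1S.

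At 6 h in H929 the other risers were scarce transcripts. LINC01191 stood at 0.309, 0.564 and 0.762 FPKM with DMSO and 3.09, 2.75 and 2.28 FPKM with YKL, a description with no test, since it met the filter only through those YKL libraries. LINC01569 went from 0.775 to 2.82 FPKM on average (1.07 ± 0.27, adjusted p 0.0357) and LINC00649 from 0.754 to 2.12 (0.83 ± 0.18, adjusted p 0.0141), each losing its call without any of 4 of the 6 libraries. LINC00649 overlaps ATP5PO on the opposite strand.

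LINC00926 moved in both lines and in both directions. At 6 h in H929 it stood at 0.92, 1.31 and 0.49 FPKM with DMSO and 3.19, 2.64 and 2.98 FPKM with YKL (1.07 ± 0.19, adjusted p 0.00459). In MM1S at 6 h it stood at 0.629, 0.258 and 0.187 FPKM and 1.51, 1.54 and 0.931 FPKM (0.78 ± 0.19, adjusted p 0.0132), a call lost without MM1S YKL 6 h replicate 2, MM1S DMSO 6 h replicate 2 or MM1S DMSO 6 h replicate 3. At 24 h in H929 it was lower with YKL, at 0.772, 0.366 and 0.546 FPKM against 1.47, 1.64 and 1.8 FPKM (-0.76 ± 0.19, adjusted p 0.00395). After rescaling both rises were called (0.93 and 0.98) and the fall was not (-0.31, adjusted p 0.286).

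The remaining named risers of H929 at 24 h were of several levels. LINC01063 stood at 8.05, 11.1 and 15.6 FPKM with DMSO and 45.8, 30.2 and 31.3 FPKM with YKL (1.56 ± 0.54, adjusted p 0.027), with an adjusted p of 0.0577 to 0.0973 without any of 4 of the 6 libraries. LINC01573, now NALT1, which starts beside NOTCH1 on the opposite strand, stood at 0.119 to 0.127 FPKM, the level of no signal, and 2.17, 1.89 and 2.89 FPKM (1.55 ± 0.41, adjusted p 0.00536). NOTCH1, the receptor gene, was lower in the same comparison (0.869 to 0.288 FPKM, -0.53 ± 0.17, adjusted p 0.0179), and not called after rescaling (-0.20, adjusted p 0.347). LINC01003 stood at 4.9, 3.18 and 3.38 FPKM and 10.7, 8.36 and 12.1 FPKM (1.24 ± 0.31, adjusted p 0.00365).

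LINC01233 stood at 0.109, 0.975 and 0.108 FPKM with DMSO and 1.94, 2.76 and 2.99 FPKM with YKL in H929 at 24 h, and at 0.0539 to 0.119 FPKM in all 6 MM1S libraries of that time. LINC01233 met the filter only through that YKL group, so these values are a description with no test.

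Among abundant transcripts LINC00467 stood at 46, 58.2 and 43.6 FPKM with DMSO and 111, 69.8 and 131 FPKM with YKL at 24 h in H929 (1.03 ± 0.31, adjusted p 0.0114). LINC01023 stood at 49.8, 58.6 and 60.8 FPKM and 127, 73.4 and 142 FPKM (0.95 ± 0.32, adjusted p 0.0226). Neither pair of groups overlapped. In both, YKL replicate 2, the library with the lowest rescaling factor of its group (0.671), was the lowest of the 3.

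Falls in H929 at 24 h were called on the deposited scale and not after rescaling. LINC00957 stood at 9.27, 13.7 and 10.1 FPKM with DMSO and 5.05, 2.56 and 5.06 FPKM with YKL (-1.23 ± 0.27, adjusted p 0.00124, and 0.0705 after rescaling). It was also lower in MM1S at 6 h, at 5.7, 5.93 and 6.12 FPKM against 3.32, 1.65 and 3.03 FPKM (-0.95 ± 0.27, adjusted p 0.0279, and 0.0592 after rescaling), and that call was lost without any of 5 of the 6 libraries. LINC01291 went from 7.22 to 2.53 FPKM on average, LINC00987 from 2.51 to 0.999, LINC00888 from 26.1 to 15.6 and LINC01128 from 2 to 0.811. Rescaled adjusted p-values of these 4 were 0.364, 0.496, 0.782 and 0.347. LINC00888 is the host of a small nucleolar RNA, and its rescaled change had the opposite sign (0.07).

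In MM1S at 6 h, LINC01137, now LITATS1, rose from 0.965, 0.726 and 1.56 FPKM to 3.49, 3.98 and 2.32 FPKM (1.03 ± 0.22, adjusted p 0.0051). It starts beside ZC3H12A, an RNase gene of the inflammatory response, which did not pass the test there (10.2 and 6.14 FPKM, adjusted p 0.164). LINC00942 averaged 0.328 FPKM with DMSO and 1.26 with YKL, again with no test, since it met the filter only through YKL libraries. LINC00174 went from 0.506 to 1.39 FPKM (0.64 ± 0.19, adjusted p 0.032). It reached 1 FPKM in 7 libraries, all of them YKL libraries of either line and 5 outside this group. The filter therefore favoured a rise with YKL. LINC00174 was not called without MM1S YKL 6 h replicate 2, one of the libraries with uneven spike-ins (0.45, adjusted p 0.167), nor without 4 of the other 5.

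LINC00880 reached 1 FPKM in 8 libraries, most of them YKL libraries, so the filter favoured a rise. At most 0.223 FPKM in H929, it rose at both times in MM1S. It stood at 1.5, 0.816 and 0.323 FPKM with DMSO and 2.01, 4.98 and 2.63 FPKM with YKL at 6 h (1.15 ± 0.26, adjusted p 0.00758), where without MM1S YKL 6 h replicate 2 the adjusted p was 0.0538. At 24 h it stood at 2.04, 0.68 and 0.393 FPKM and 2.22, 2.47 and 3.2 FPKM (0.91 ± 0.26, adjusted p 0.0318), a call lost without any of 5 of the 6 libraries. LINC01252 rose at 24 h in MM1S from 0.853, 0.781 and 0.445 FPKM to 2.35, 2.26 and 1.98 FPKM (0.92 ± 0.24, adjusted p 0.0157). In H929 it stood at 0.433 and 0.483 FPKM on average at that time. LINC01252 reached 1 FPKM in 6 libraries, most of them YKL libraries of MM1S, so the filter favoured a rise here too. Its call was lost without either of 2 of the 6 libraries compared.

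**Figure D5:**
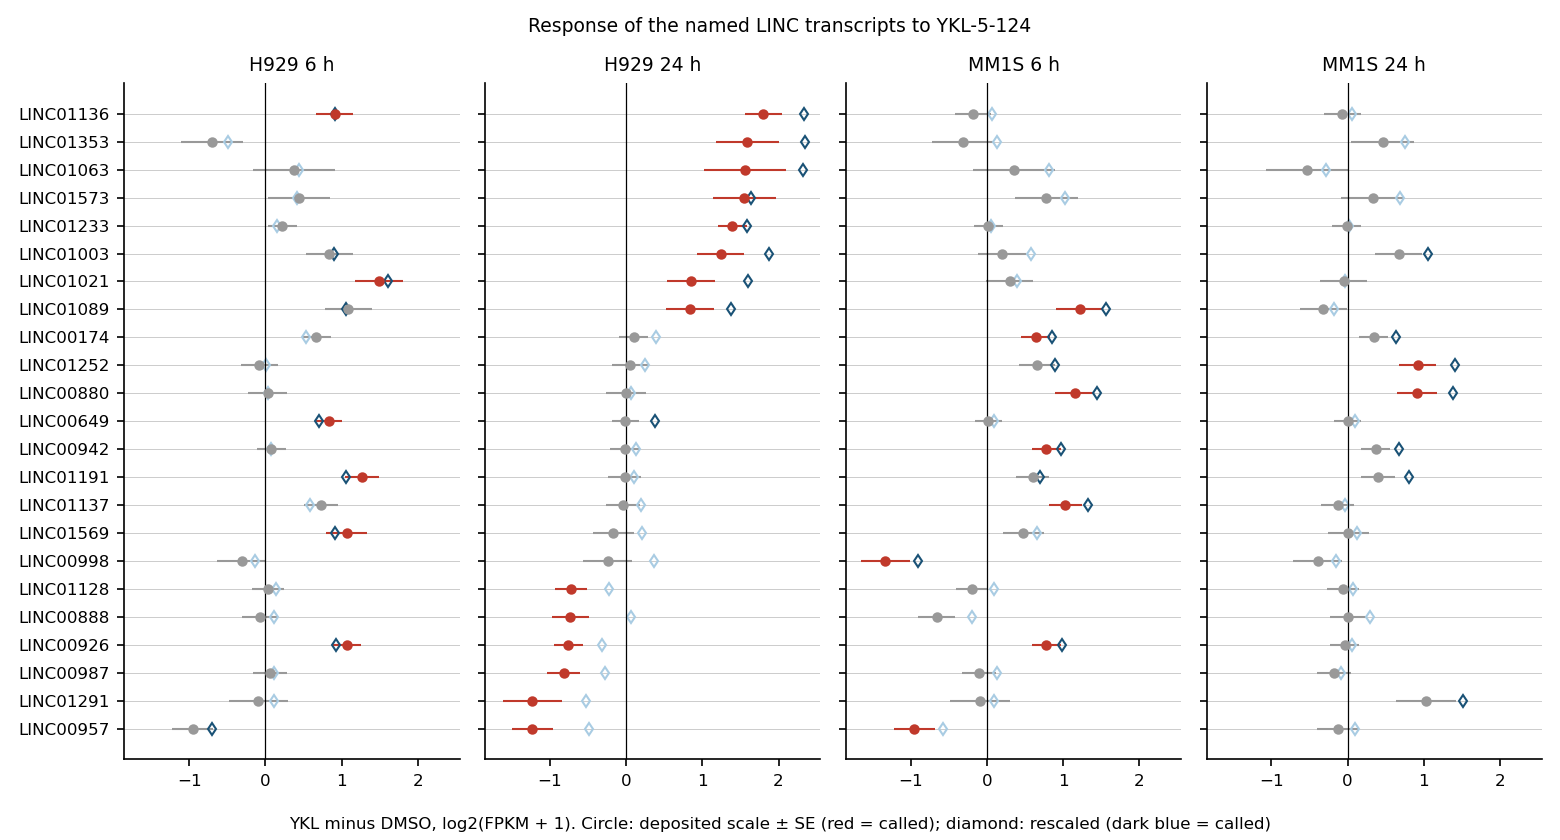
Change with YKL on the log2(FPKM + 1) scale (horizontal) for the 23 LINC transcripts named in the 4 comparisons, as circles with standard errors on the deposited scale and diamonds after rescaling; red circles and dark diamonds passed the test. LINC01136 lies at 1.80 in H929 at 24 h, and the 6 transcripts lower in that panel have diamonds that did not pass.

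At 24 h the response differed between the lines for 3 of the 172, LINC01136, LINC01233 and LINC01291 (1.36% of all genes), and for 17 after rescaling (12.4%). Neither count stands far from the share of all genes, and LINC01233 was brought past the filter by the H929 YKL libraries. LINC01291 stood at 5.75, 9.55 and 6.37 FPKM with DMSO and 3.67, 1.91 and 2.02 FPKM with YKL in H929, and at 0.831, 0.313 and 0.444 FPKM and 2.59, 2.79 and 1.16 FPKM in MM1S. With DMSO at 6 h it averaged 2 ± 0.52 FPKM (SD) in H929 and 1.02 ± 1.01 in MM1S. At 24 h it was lower in every H929 YKL library than in any H929 DMSO library of that time. In MM1S it was higher in every 24 h YKL library than in any 24 h DMSO library. The difference between the responses of the lines was -2.25 ± 0.55 (adjusted p 0.0426), and it was lost without any of 8 of the 12 libraries (the largest adjusted p was 0.125, without H929 DMSO 24 h replicate 2). At 6 h limma called 0 of the 172 (0.169% of all genes), with 17 at an unadjusted p under 0.05, and 0 after rescaling (1.14%).

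On the deposited scale 6 transcripts (3.49%, against 11.6% of all genes) were called in at least 2 of the 4 comparisons, LINC00880, LINC00926, LINC00957, LINC01021, LINC01089 and LINC01136. Of these, 3 (1.74%, against 10.6% of all genes) were called in both lines. After rescaling 68 were called in at least 1 comparison (39.5%, against 52.6%), 26 in at least 2 (15.1%, against 23.4%) and 17 in both lines (9.88%, against 19.2%), and 11 of the 172 rose in both lines at 24 h (7.61% of all genes).

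The 11 entries that RefSeq now lists as protein coding are short proteins or parts of coding genes. LINC00493 encodes SMIM26 and LINC00116 encodes mitoregulin (MTLN), both small mitochondrial proteins. LINC01420 encodes NBDY, which binds the decapping complex of P-bodies, and LINC00998 encodes SMIM30, a small membrane protein. The others are LINC00341 (SYNE3), LINC00094 (BRD3OS), LINC01125 (C2orf92), LINC01279 (CCDC80), LINC00935 (SPMIP11), LINC00672 (LASP1NB) and LINC00959 (C10orf143).

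LINC00998 was the single one of the 11 that changed with YKL on the deposited scale. In MM1S at 6 h it stood at 22.3, 18.2 and 19 FPKM with DMSO and 7.47, 6.87 and 7.42 FPKM with YKL. The groups lay far apart (-1.33 ± 0.32, adjusted p 0.0112, and -0.90, adjusted p 0.00489, after rescaling). The adjusted p was 0.0539 without MM1S DMSO 6 h replicate 1. Its level in H929 was 5.95 and 4.92 FPKM at 6 h. LINC00493 averaged 203 and 138 FPKM and LINC00116 58.6 and 40.4 FPKM in MM1S at 6 h, neither called.

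The other members listed for their known roles were scarce. LINC00665 ranged over group means of 0.148 to 1.17 FPKM, LINC00963 over 0.173 to 1.44 and LINC00969 (now MIR570HG) over 0.646 to 3.42, and none of the 3 passed the test for YKL on the deposited scale. LINC00094 lies opposite BRD3 and averaged 2.46 FPKM in the DMSO libraries of H929 and 0.845 in those of MM1S (0.93 ± 0.16, adjusted p 1.56e-05, and 0.071 after rescaling). In all, 30 of the 172 overlap a protein-coding gene in GENCODE v29, 11 of them on the same strand, and 27 start within 5 kb of a coding gene's start on the other strand. Without strand, reads of such pairs cannot be told apart.

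A list of other long noncoding RNAs with established names was read in the same fits, and 24 of its 31 genes were measured. Most of its calls with YKL were falls, as were most calls over all genes on the deposited scale. In H929 at 6 h 0 rose and 3 fell, at 24 h 1 rose and 14 fell, and in MM1S 0 rose and 9 fell at each time. After rescaling the counts were 0 and 6, 4 and 11, 1 and 8, and 3 and 12. The rescaled shares of all genes were 5.11% and 4.19%, 20.8% and 12.5%, 8.25% and 7.21%, and 14.4% and 13.3%. Small nucleolar RNA host genes led the falls. SNHG1 averaged 479 FPKM in the DMSO and 45.4 in the YKL libraries of H929 at 24 h (-3.43 ± 0.28, adjusted p 2.61e-08), and GAS5 1830 and 435. The riser was TP53TG1, a p53-induced transcript, at 4.68 and 11.7 FPKM (1.07 ± 0.34, adjusted p 0.0174). The difference between these genes and the LINC transcripts was not tested.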

How the data were processed

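RNA was measured with a 3′ end library method (QuantSeq, per the labels' protocols). The submitters' processing notes name HISAT2, Cuffnorm and hg19, without versions. The authors deposited FPKM values for 26341 entries per library, 92 of them ERCC spike-ins. No value was 0, and genes without signal held about 0.1 FPKM (library minima 0.037 to 0.137). Depth is unknown, so no counting interval is given. Length division does not suit 3′ reads. It drops out of FPKM ratios of 1 gene between groups, but not out of log2(FPKM + 1) changes or the 1 FPKM filter.

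The test was two-sided limma-trend (limma 3.58.1, R 4.3.3) of log2(FPKM + 1), which understates changes of low genes. All 12418 genes that met the filter entered 1 fit of 8 group means, with Benjamini-Hochberg adjustment over these genes within each of 7 comparisons and a threshold of 0.05. Rescaling was by median of ratios over 6014 genes (geometric mean 5 FPKM or more). The test was checked on simulated data.

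Named transcripts were the 6 largest rises and falls per YKL comparison and the 8 largest line differences of each sign (called, groups not overlapping), up to 4 of each sign for the line difference of the response, the 10 highest means, a list of 12 set by hand, and those at the edge of the filter. BTG2, CHIT1, further rows of LINC01023, LINC00467 and LINC01089, and the 4 promoters were singled out after values were seen. Members and lists were chosen with earlier results of these data known. Names and neighbours came from RefSeq (GRCh38.p14, 172 matched) and GENCODE v29 (162 matched). Alternatives were another pseudocount, filter or set of samples, the replicate number as a block, and single libraries or those with uneven spike-ins left out.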

Additional observations from a re-analysis of the deposited data

Results flagged for a closer look

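The response to YKL at 24 h differed between H929 and MM1S for 3 of the 172 LINC transcripts by the interaction term of the limma fit, against 1.36% of all genes. LINC01136 differed by 1.87 ± 0.34 on the log2(FPKM + 1) scale (adjusted p 0.00654), from 2.45 to 11.4 FPKM in H929 and from 0.713 to 0.623 FPKM in MM1S. LINC01233 differed by 1.40 ± 0.27, from 0.397 to 2.56 FPKM in H929 and from 0.0859 to 0.0782 FPKM in MM1S, but it met the filter only through the H929 YKL 24 h libraries, so this is a description with no test. LINC01291 differed by -2.25 ± 0.55 (adjusted p 0.0426), from 7.22 to 2.53 FPKM in H929 and from 0.53 to 2.18 FPKM in MM1S. All 3 were also called after rescaling.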

How the results depend on the processing

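After rescaling, the counts of called LINC transcripts were 14 in H929 at 6 h (6 as deposited), 42 at 24 h (25), 18 in MM1S at 6 h (8), 29 at 24 h (2) and 17 for the line difference at 24 h (3). With rescaled values below 1 FPKM raised to 1, an alternative chosen after seeing the data, they were 13, 41, 16, 38 and 23, and 4 for the line difference at 6 h (0). With a pseudocount of 0.1 they were 0 in H929 at 6 h, 1 in MM1S at 24 h and 1 for the line difference at 24 h. With the compared groups alone in the fit they were 1 in H929 at 6 h and 13 in MM1S at 6 h, and with no filter 1 in MM1S at 24 h. Leaving out single libraries gave 3 to 7 in H929 at 6 h (3 without H929 DMSO 6 h replicate 1 or 2 or H929 YKL 6 h replicate 2), 16 to 28 at 24 h (16 without H929 DMSO 24 h replicate 2), 4 to 9 in MM1S at 6 h (4 without MM1S DMSO 6 h replicate 1), 0 to 4 at 24 h (0 without MM1S YKL 24 h replicate 1), 66 to 74 between lines, 0 to 0 for the line difference at 6 h and 2 to 7 at 24 h (7 without MM1S DMSO 24 h replicate 2). Between lines, the 6 h DMSO libraries alone gave 24 higher in H929 and 29 higher in MM1S, and the 24 h ones 43 and 14. The fall of LINC00888 in H929 at 24 h reversed after rescaling (0.07), with the block as well (0.07) and with the floor (0.08). The causes were not tested.

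Replicate numbers did not pair the samples: 1 of 12 same-numbered pairs had a correlation of deviations over 0.1, on each scale, and 1 of 12 (2 after rescaling) correlated best with its own number. The replicate block gave 4, 25, 7 and 2 called in the 4 YKL comparisons and 0 and 2 for the line differences, and with rescaling 17 in MM1S at 6 h, 28 at 24 h and 15 for the line difference at 24 h. For H929 against MM1S the block could not be fitted, since it lies within the lines. Of 396 values of named transcripts with a library left out, 335 stayed on their side of the threshold and 61 lost their call, with 0 reversed. The unknown depth leaves the precision of values near 0.1 FPKM unknown.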

Other observations

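By chromosome, chromosome 13 held 12 of the 172 LINC transcripts, of which 1 was higher in H929 and 5 higher in MM1S with DMSO (1 and 8 after rescaling). LINC00403, LINC00426 and LINC00539 are among the 5. Of all 211 genes tested on chromosome 13, 84 were higher in H929 and 47 higher in MM1S, and their median line difference was 0.18 on the log2 scale, against 0.71 over all genes, and -0.49 against -0.18 after rescaling. This was not particular to chromosome 13. The gene median of chromosome 21 was 0.16 (-0.57 after rescaling). Chromosome 7 held 11 LINC transcripts, 1 higher in H929 and 4 higher in MM1S (0 and 8 after rescaling). Its gene median was 0.39 (-0.50 after rescaling). On chromosome 14, 8 LINC transcripts gave 4 higher in H929 and 0 higher in MM1S (0 and 0 after rescaling). Of its 396 genes 335 were higher in H929 and 13 higher in MM1S, with a median of 1.34 (0.40 after rescaling). These are descriptions with no test, and LINC00403, LINC00426 and LINC00539 met the filter only through MM1S.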
